A study of Rattus norvegicus with 6 samples.

Results

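The genes described here are Znrd1as1, Ppp1r10, Msh5, Vwa7 and AA926063, 5 of the 28358 genes in the deposited tables. They lie beside the RT1 genes, the rat MHC genes, on chromosome 20, are not RT1 genes themselves, and were chosen by their adjusted p between the groups, which lay below 0.05 in edgeR's quasi-likelihood test (Benjamini-Hochberg, every tested gene included). All 5 were among the 13242 genes that passed the filter on low counts. The choice used the comparison of the groups, so the differences of these 5 genes are given as a description and not as a test.

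The sequenced RNA came from neuroretina of 14 months old male GK rats (Goto-Kakizaki), an inbred model of type 2 diabetes without obesity. The spironolactone group held 3 samples from eyes that had received 5 µL of microspheres loaded with 6.2 µg of spironolactone, which blocks the mineralocorticoid receptor. The non-loaded group held 3 samples from eyes that had received microspheres without drug. Both groups were diabetic, had PLGA microspheres (a degradable polymer) injected once into the vitreous, and were taken 2 months later, so no uninjected or non-diabetic retina stands beside them. Whether the samples are separate animals is not in the labels, so p-values here cover only sample-to-sample spread, in part possibly technical.

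The MHC region is one of the most gene-dense parts of a mammalian genome. Besides the genes that present peptides to T cells it holds many framework genes with other roles, whose order is largely kept between rodents and humans. Ppp1r10 encodes PNUTS, a nuclear subunit that targets protein phosphatase 1 and is known for its part in the termination of transcription. Msh5 encodes a MutS homologue that acts with Msh4 in meiotic crossing over and is not part of the core mismatch repair machinery. Vwa7 encodes a protein with a von Willebrand factor A domain, and Znrd1as1 is named for its place opposite Znrd1, which encodes a subunit of RNA polymerase I, although RefSeq annotates Znrd1as1 itself as protein-coding. AA926063 is annotated by RefSeq as a long non-coding RNA.

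The promoters (250 bases before to 50 bases after the start) are shown for the 3 of the 5 genes with a GRCr8 promoter sequence at hand. Those of the genes that were higher are set beside that of a gene that was lower. All 3 genes lie on the minus strand, and each sequence is written in the direction of transcription. Capitals mark matches, on either strand, to TGACGTCA (the cAMP response element), CCAAT and TATAAA.
Znrd1as1, chr20:1600009-1600308: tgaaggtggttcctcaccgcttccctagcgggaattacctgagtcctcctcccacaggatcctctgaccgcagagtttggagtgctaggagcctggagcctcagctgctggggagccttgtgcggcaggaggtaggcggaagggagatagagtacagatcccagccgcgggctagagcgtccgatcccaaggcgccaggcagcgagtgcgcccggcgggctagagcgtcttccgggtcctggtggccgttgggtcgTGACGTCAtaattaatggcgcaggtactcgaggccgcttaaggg
Ppp1r10, chr20:2842369-2842668: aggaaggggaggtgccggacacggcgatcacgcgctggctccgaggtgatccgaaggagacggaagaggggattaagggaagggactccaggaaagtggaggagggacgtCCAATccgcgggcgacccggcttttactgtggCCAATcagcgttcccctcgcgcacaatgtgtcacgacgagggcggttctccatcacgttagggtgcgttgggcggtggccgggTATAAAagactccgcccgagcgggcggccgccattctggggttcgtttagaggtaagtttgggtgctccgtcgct
Vwa7, chr20:3810129-3810428: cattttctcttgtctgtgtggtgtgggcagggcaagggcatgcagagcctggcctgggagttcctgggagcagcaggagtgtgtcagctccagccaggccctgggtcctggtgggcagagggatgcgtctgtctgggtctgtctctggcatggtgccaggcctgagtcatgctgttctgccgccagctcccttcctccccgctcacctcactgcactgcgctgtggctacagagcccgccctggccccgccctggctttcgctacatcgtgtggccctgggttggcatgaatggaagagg

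The Znrd1as1 window held 1 match to TGACGTCA, which is present in 1.91% of the 27457 promoters of this length. The Ppp1r10 window held 2 matches to CCAAT (in 37.7% of promoters) and 1 to TATAAA (in 14.3%). The Vwa7 window held none of these. Of the other motifs searched, the corticoid receptor palindrome, AGAACA and TGTTCT with 3 bases of any kind between (in 0.00728% of promoters), the E-box CACGTG (in 6.65%) and TGATGNAA (in 3.82%) had no match in the 3 windows. The motifs were chosen after the values and these sequences had been seen, and no match says only that these letters are absent from the window.

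Libraries held 10575220 to 12589466 expected counts in the spironolactone group and 9996198 to 11966769 in the non-loaded group. Over all genes 348 (2.63% of those tested) passed an adjusted p of 0.05 in edgeR's quasi-likelihood test, 247 higher (1.87%) and 101 lower (0.763%) with spironolactone. The markers of the retina were present in all libraries. The 7 rod genes summed to 34470 to 38590 CPM in spironolactone libraries and 41420 to 52260 CPM in non-loaded libraries, and 2 of the 7 passed as lower. CPM are counts relative to library size, scaled by TMM factors. Microglial markers summed to 73.9 to 83.9 CPM with spironolactone and 70 to 97.5 CPM without, and 0 of 8 lymphocyte and neutrophil markers passed the filter. Of these 8, Ms4a1 and Mpo were at 0 in all libraries. Lens and cornea markers stood apart in spironolactone replicate 1, where they summed to 36.9 CPM, mainly from the corneal keratin genes Krt12 and Krt5, against at most 2.22 CPM in the non-loaded libraries. Pigment epithelium markers summed to 40.8 to 91 CPM with spironolactone, lowest in replicate 3, and to 83.1 to 98.7 CPM without. Erythrocyte markers summed to 86.1 to 155.3 CPM with spironolactone and 86.3 to 104.8 CPM without, and 1 of the 2 tested passed as higher. In bulk tissue, fewer cells of a type and less RNA per cell cannot be told apart, and the part of these differences in the results below was not tested.

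Among the 5 genes, Znrd1as1 and Ppp1r10 were higher with spironolactone, and AA926063, Msh5 and Vwa7 were lower. The groups did not overlap in CPM for 4 of the 5, against 20.9% of all tested genes (11.4% higher and 9.48% lower). The 5 were chosen on these same counts, so this follows in part from the choice. The changes ranged from 1.21-fold for Ppp1r10 to 2.96-fold for Vwa7. By the size of p, AA926063 ranked 15th of all tested genes, Znrd1as1 175th, Ppp1r10 193rd, Msh5 332nd and Vwa7 345th, so that the last of these were among the final genes of the 348 called.

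**Figure D1:**
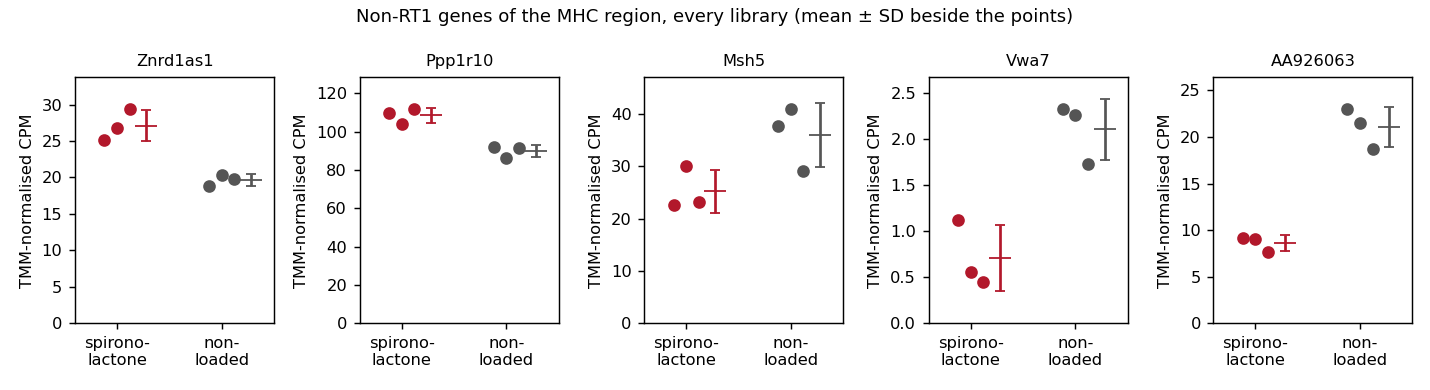
TMM-normalised CPM of the 5 genes in each of the 6 libraries, with the mean ± SD of 3 libraries beside the points, spironolactone left and non-loaded right. The groups are apart for Znrd1as1, Ppp1r10, Vwa7 and AA926063, whereas for Msh5 the highest spironolactone library (30 CPM) lies above the lowest non-loaded library (29.1 CPM).

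AA926063, the long non-coding RNA, measured 9.15, 9.1 and 7.68 CPM in the spironolactone libraries, against 22.97, 21.5 and 18.8 CPM in the non-loaded libraries. Every spironolactone library was thus below every non-loaded one, with no library in between. The mean was 8.64 ± 0.83 CPM with spironolactone and 21.1 ± 2.14 CPM without (SD, n = 3 each), a log2 fold change of −1.28 ± 0.13 (SE). The adjusted p by which it was chosen was 3.09e-05, and leaving out any 1 library moved the log2 fold change only between −1.36 and −1.21. The gene passed the threshold in all 6 of these fits.

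Vwa7 was at the edge of detection. Its expected counts were 12, 7 and 5 in the spironolactone libraries and 23, 26 and 21 in the non-loaded libraries, equal to 1.12, 0.56 and 0.45 CPM with spironolactone and 2.33, 2.27 and 1.73 CPM without. The groups did not overlap, and the highest spironolactone library was replicate 1. The log2 fold change was −1.56 ± 0.41 at the choosing adjusted p of 0.0499. Without spironolactone replicate 1 it was −2.02 (adjusted p = 0.0237, edgeR). Without any other library it missed the threshold, with 0.0761 as the lowest adjusted p (non-loaded replicate 3 left out) and 0.236 as the highest (spironolactone replicate 3 left out). On log2(TPM + 1), a scale that understates changes of low genes, the difference was −0.69 (adjusted p = 0.125, limma).

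Msh5 measured 22.6, 30 and 23.2 CPM in the spironolactone libraries, against 37.7, 40.9 and 29.1 CPM in the non-loaded libraries. The groups overlapped at spironolactone replicate 2 and non-loaded replicate 3. The means were 25.3 ± 4.11 CPM with spironolactone and 35.9 ± 6.11 CPM without (SD, n = 3 each), a log2 fold change of −0.50 ± 0.13, with a choosing adjusted p of 0.0487. With 1 library left out, the adjusted p of edgeR was 0.087 without spironolactone replicate 1 and 0.208 without spironolactone replicate 3. It was 0.193 and 0.207 without the first and the second non-loaded library. It passed without spironolactone replicate 2 (−0.65, 0.0486) and without non-loaded replicate 3 (−0.64, 0.0082), the libraries at which the groups met.

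Ppp1r10, the nuclear phosphatase subunit, measured 109.5, 104.1 and 111.6 CPM in the spironolactone libraries, against 91.9, 86 and 91.5 CPM in the non-loaded libraries. All 3 spironolactone libraries were above all 3 non-loaded ones. The log2 fold change of 0.27 ± 0.06 was the smallest of the 5, at a choosing adjusted p of 0.0213. The gene passed without spironolactone replicate 1 (adjusted p = 0.0317, edgeR) and missed the threshold without any other library, from 0.0568 without non-loaded replicate 3 to 0.125 without non-loaded replicate 2.

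Znrd1as1 measured 25.2, 26.8 and 29.4 CPM in the spironolactone libraries, against 18.8, 20.3 and 19.8 CPM in the non-loaded libraries. The groups did not overlap. The log2 fold change was 0.46 ± 0.10, with a choosing adjusted p of 0.0189. It passed without spironolactone replicate 1 (adjusted p = 0.0124, edgeR), and the other 5 fits without a library missed the threshold, by least without non-loaded replicate 3 (0.0509) and by most without spironolactone replicate 3 (0.104). With effective gene lengths as an offset the log2 fold change was 0.31 (adjusted p = 0.176).

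Levels between genes are compared on the TPM scale, which is per length. In the spironolactone group Znrd1as1 stood highest, at 88.5 to 103.3 TPM, followed by AA926063 at 55 to 68.7 TPM, Ppp1r10 at 47 to 51.5 TPM, Msh5 at 15.4 to 20.4 TPM and Vwa7 at 0.29 to 0.75 TPM. None of these neighbouring ranges overlapped. In the non-loaded group the order of the leading genes was the other way round, with AA926063 at 136.5 to 165.1 TPM above Znrd1as1 at 68 to 80.4 TPM. Ppp1r10 (37.9 to 42.5 TPM), Msh5 (19.7 to 26.2 TPM) and Vwa7 (1.13 to 1.5 TPM) kept their places.

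The deposited gene length is the mean over a gene's transcripts weighted by their abundance, and was not used to choose the genes. Znrd1as1, with 11 annotated transcripts, had weighted lengths of 694.8, 685.2 and 676 bases in the spironolactone libraries, against 661.9, 606.2 and 638.2 bases in the non-loaded libraries. The transcripts counted for it were thus longer on average in every spironolactone library. The means were 685.3 ± 9.4 bases with spironolactone and 635.4 ± 28 bases without (SD, n = 3 each), a difference of 49.9 bases (exact two-sided permutation test, p = 0.1, the smallest that 3 against 3 libraries allow, and 0.6 adjusted over 6 genes). Over 3716 tested genes with several transcripts and a varying length, the groups were apart in 10.9%, and longer with spironolactone in 4.82%. On log2(TPM + 1), a scale that takes length into account, Znrd1as1 differed by 0.33 (adjusted p = 0.125, limma).

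Msh5, with 2 transcripts, had weighted lengths of 2901, 2799 and 2869 bases in the spironolactone libraries and 2901 bases, to the nearest base, in the 3 non-loaded libraries (exact two-sided permutation test, p = 0.4, adjusted 0.6). More than a trace of the shorter transcript was thus counted in spironolactone replicates 2 and 3 only. For AA926063 the lengths were 412.8 ± 1.7 bases with spironolactone and 413.4 ± 0.8 bases without (exact p = 0.7, adjusted 0.7, n = 3 each). Those of Ppp1r10 and Vwa7 did not vary. The 6 genes tested for length were these 3 with Sapcd1, Znrd1 and Daxx, and none can pass 0.05 with this number of libraries.

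**Figure D2:**
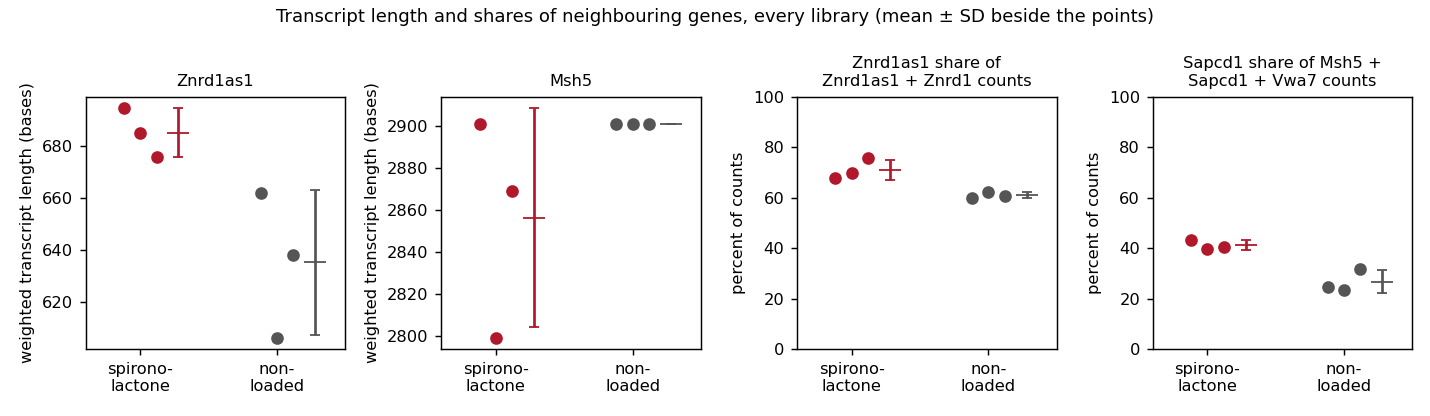
Abundance-weighted transcript length (bases) of Znrd1as1 and Msh5, and the share of expected counts (percent) taken by Znrd1as1 among Znrd1as1 and Znrd1 and by Sapcd1 among Msh5, Sapcd1 and Vwa7, in each library with mean ± SD, spironolactone left and non-loaded right. The length axes do not start at 0. The Znrd1as1 lengths of 676 to 694.8 bases with spironolactone lie above the 606.2 to 661.9 bases without.

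Genes beside the 5 were examined in the gene order of the GRCr8 annotation, which is a later assembly than the rn6 genome named by the submitters and is used here for neighbourhood only. Znrd1as1 overlaps Znrd1, which lies on the opposite strand. Znrd1 measured 12, 11.6 and 9.48 CPM in the spironolactone libraries, against 12.7, 12.3 and 12.8 CPM in the non-loaded libraries. It was in the other direction from Znrd1as1 without passing the test (−0.19 ± 0.14, adjusted p = 0.562, edgeR). Znrd1as1 took 71 ± 4.09% of the counts of the pair with spironolactone and 61 ± 1.25% without (SD, n = 3 each). This share includes the counts by which Znrd1as1 was chosen. In TPM, which takes length into account, its share was 62.3, 65.9 and 74% with spironolactone, against 58.6, 63.2 and 58.2% without. On that scale the groups overlapped. The library kit was stranded, but no source used here gives the strand setting of the counting, and without strand the reads of the overlap cannot be told apart.

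Msh5, Sapcd1 and Vwa7 follow each other, and Sapcd1, which encodes a protein with a suppressor APC domain, overlaps Vwa7. Sapcd1 measured 18.2, 20.3 and 16 CPM in the spironolactone libraries, against 13.2, 13.3 and 14.5 CPM in the non-loaded libraries. All 3 spironolactone libraries were higher, the opposite of the genes on either side, although Sapcd1 did not pass (0.41 ± 0.13, adjusted p = 0.0987, edgeR). Sapcd1 took 41.2 ± 1.94% of the counts of the 3 genes with spironolactone and 26.7 ± 4.57% without (SD, n = 3 each). Vwa7 took 1.64 ± 0.9% with spironolactone and 4.07 ± 0.28% without. Msh5 and Vwa7, both lower, were chosen on these same counts, so the differences in these shares follow in part from the choice.

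AA926063 lies next to Daxx, and beyond Daxx and Zbtb22 to Tapbp, which encodes the tapasin that helps to load peptides onto MHC class I molecules. Tapbp measured 56.1, 55.3 and 48.7 CPM in the spironolactone libraries, against 89.4, 81.7 and 83.7 CPM in the non-loaded libraries. Every spironolactone library was below every non-loaded one, and Tapbp fell by 0.67 ± 0.07 on the log2 scale (adjusted p = 4.4e-05, edgeR). The genes between them, Daxx (66.4 ± 2.14 CPM with spironolactone and 71.6 ± 0.69 CPM without; SD, n = 3 each) and Zbtb22 (135.4 ± 7.66 CPM with spironolactone and 136.3 ± 3.56 CPM without), did not pass.

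**Figure D3:**
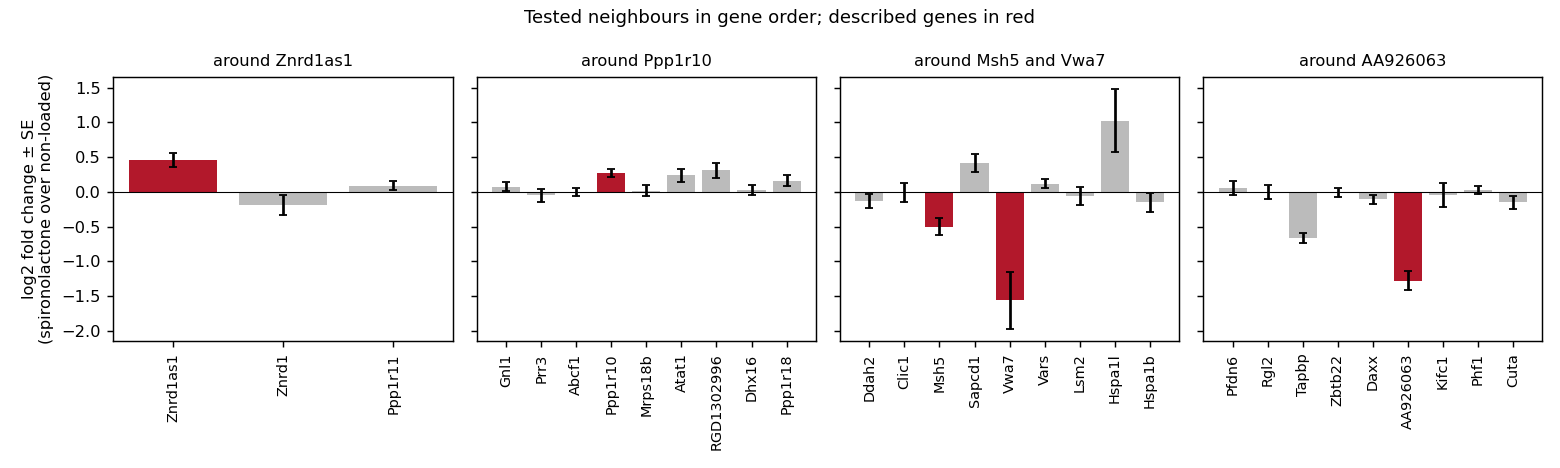
Log2 fold change (spironolactone over non-loaded) ± SE of the tested genes among the 5 neighbours on each side, in gene order, with the described genes in red. Zbtb22 (−0.01) and Daxx (−0.11) lie between Tapbp and AA926063, Sapcd1 stands above 0 between Msh5 and Vwa7, and the tall bar of Hspa1l (1.03) has a wide SE and did not pass.

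Among the direct neighbours, 2 on each side of a gene, 12 were tested apart from the 5 genes. That 0 of these passed is fixed by the way the 5 were chosen. At an unadjusted p below 0.05 (edgeR) there were 2 (16.7%), Sapcd1 and Atat1, against 15.8% over all genes. Without Sapcd1 and Znrd1 the log2 fold changes of the direct neighbours lay between −0.13 and 0.24. Among the 5 neighbours on each side, 26 were tested and 1 passed, Tapbp, against 2.63% over all genes. In this wider set 7 (26.9%) had an unadjusted p below 0.05, against 15.8% over all genes, and the groups were apart for 9 (34.6%), against 20.9% over all genes. The tested genes nearest to Ppp1r10 were Abcf1 and Mrps18b. Abcf1 measured 102 ± 2.68 CPM with spironolactone and 102.3 ± 4.57 CPM without, and Mrps18b 40.9 ± 2.38 CPM with spironolactone and 40.4 ± 2.47 CPM without (SD, n = 3 each).

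Beyond the neighbours, a list of 113 framework genes of the region, without RT1 and antigen processing genes, had 88 tested members. The 5 genes were its only calls, which the way they were chosen fixes. Of the other 83, 0 passed in edgeR, and 12 (14.5%) had an unadjusted p below 0.05, against 15.8% over all genes. Of the 12, 8 were higher and 4 lower, where all genes had 9.52% higher and 6.32% lower. The groups were apart for 21 (25.3%) of them, against 20.9% over all genes. Their median log2 fold change was 0.02 and that of all genes 0.00. With limma-voom, 0 of them were called. DESeq2 also called 0, but it gave no adjusted p to C4a, Sapcd1, Trim15 and Znrd1, so it could not call these. With no filter 1 of the list was called higher, and with effective lengths as an offset 1 was called lower.

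The genes nearest the threshold were Vwa7 and Msh5 inside it and C4a, Sapcd1 and Trim15 outside it. C4a, a complement component and a close copy of C4b, so that the division of reads between them is uncertain, measured 6.87 ± 0.5 CPM with spironolactone and 4.3 ± 0.06 CPM without (SD, n = 3 each; adjusted p = 0.0751, edgeR). Trim15 measured 1.58 ± 0.35 CPM with spironolactone and 0.65 ± 0.08 CPM without (adjusted p = 0.125, edgeR). Of the 5 antigen processing genes of the region, 4 were tested (Tap2 is listed at 0). Tapbp alone of these passed, as lower, against 2.63% over all genes (0.763% lower). The groups were apart in CPM for 2 (50%) of the 4, both lower, against 20.9% over all genes. Of 41 genes named RT1, 18 were tested, of which 3 passed as higher and 2 as lower, against 1.87% higher and 0.763% lower over all genes.

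**Figure D4:**
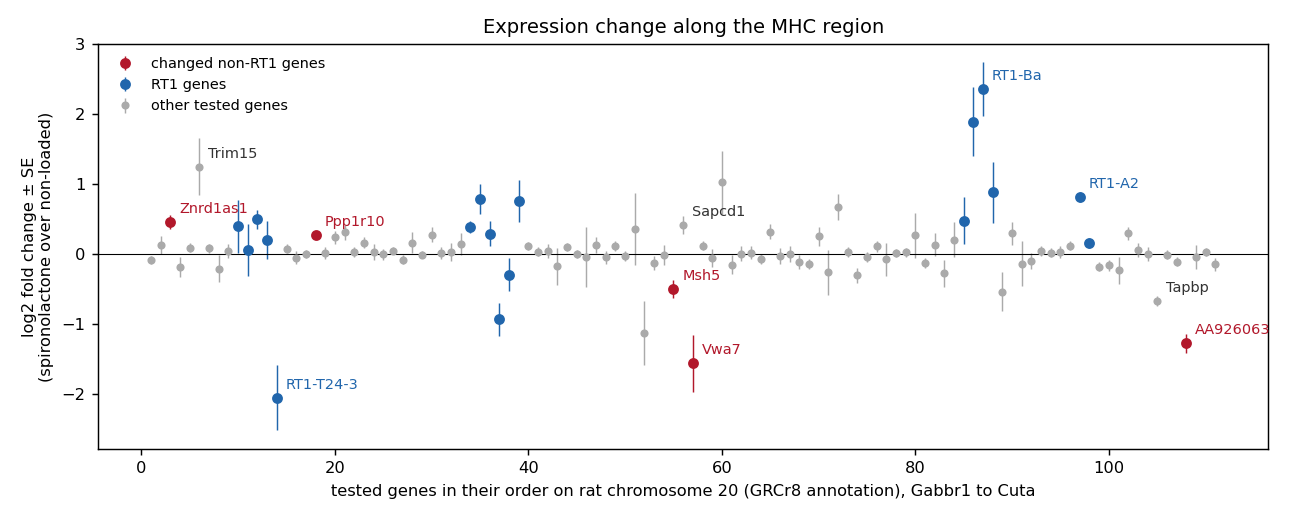
Log2 fold change (spironolactone over non-loaded) ± SE of the 111 tested genes from Gabbr1 to Cuta in GRCr8 gene order, with the 5 described genes in red, RT1 genes in blue and other genes in grey. Znrd1as1 and Ppp1r10 lie above 0, Msh5, Vwa7 and AA926063 below it, and the RT1 genes spread from −2.06 to 2.36.

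The partners of the encoded proteins were looked at by lists drawn from textbook knowledge. For Ppp1r10, 13 other genes of nuclear phosphatase 1 complexes and their partners were tested, with 0 calls (3, or 23.1%, at an unadjusted p below 0.05, against 15.8% over all genes, edgeR). The groups were apart in CPM for 5 (38.5%) of the 13, against 20.9% over all genes. The catalytic subunit gene Ppp1ca measured 105.1 ± 4.83 CPM with spironolactone and 120.1 ± 0.4 CPM without (−0.19 ± 0.06, adjusted p = 0.098, edgeR). Zc3h4, a factor that restricts non-coding transcription, measured 423.1 ± 23.8 CPM with spironolactone and 371.3 ± 7.32 CPM without (0.19 ± 0.06, adjusted p = 0.103, edgeR). Wdr82 and Tox4, which form a complex with PNUTS, did not pass either (adjusted p = 0.455 and 0.975, edgeR).

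Msh4, the partner of Msh5 in meiosis, had at most 2 counts in any library and was not tested, whereas Msh5 had 242 to 376 counts in spironolactone libraries and 354 to 469 in non-loaded libraries. Of 6 germ cell markers 0 were tested, Ddx4, Sycp1 and Tex11 were at 0 in all 6 libraries, and the highest count of the others was 6. Msh5 was thus counted in libraries where these germ line markers were at or near 0. Among 12 other tested genes of mismatch repair and its partners, 0 passed (1, or 8.33%, at an unadjusted p below 0.05, against 15.8% over all genes, edgeR), and their median log2 fold change was 0.14. The groups were apart in CPM for 4 (33.3%) of the 12, all higher with spironolactone, against 20.9% over all genes (11.4% higher). The smallest p values belonged to Mlh3 (0.18 ± 0.08, adjusted p = 0.287, edgeR) and Pms1 (0.33 ± 0.16, adjusted p = 0.326), both MutL homologue genes.

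Of 6 other tested genes with a von Willebrand factor A domain, the groups were apart in CPM for 4 (66.7%), against 20.9% over all genes. Of the 4, 1 was higher with spironolactone (Vwf) and 3 were lower (Vwa1, Vwa5b2 and Matn2). Of the 6, 1 passed, against 2.63% over all genes. Vwf, which encodes von Willebrand factor itself and marks endothelium, rose to 42.5 ± 10.3 CPM with spironolactone, against 28.9 ± 2.78 CPM without (0.55 ± 0.14, adjusted p = 0.0404, edgeR). It was highest in spironolactone replicate 1 (53.2 CPM), and passed without spironolactone replicate 2 (0.0124) but not without any other library (lowest 0.0679 and highest 0.163, with non-loaded replicates 3 and 2 left out). Without spironolactone replicate 1 its log2 fold change was 0.36 (adjusted p = 0.0891, edgeR), and with limma-voom the adjusted p was 0.0635. Vwa1 measured 16.7 ± 0.65 CPM with spironolactone and 18.7 ± 0.85 CPM without (adjusted p = 0.51, edgeR). Of 15 tested RNA polymerase I subunits and factors, Znrd1 among them, 0 passed (3 of the 15 at an unadjusted p below 0.05, against 15.8% over all genes, edgeR). The groups were apart in CPM for 4 (26.7%) of the 15, against 20.9% over all genes. Polr2k (−0.31 ± 0.12, adjusted p = 0.221, edgeR) and Ubtf (0.13 ± 0.06, adjusted p = 0.28) had the smallest p values.

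The genes whose log2 CPM followed each gene most closely over the 6 libraries were named by Pearson's r, as a description over libraries that also share the group difference. For AA926063 they were Ccng1, Ccdc125 and Tmed9 (r = 0.996, 0.995 and 0.994). For Vwa7 they were Pqlc1, Gapdh and Mdh1 (0.998, 0.996 and 0.994), for Msh5 Chmp4bl1, Lsm3 and Mafg (0.994, 0.992 and 0.985), for Ppp1r10 Lonrf1, Atf6 and Top2b (0.998, 0.997 and 0.993), and for Znrd1as1 Add3, Topbp1 and Hook3 (0.997 each). None lies among the 5 neighbours of its gene. With the group means removed, none of the names given for AA926063, Vwa7, Ppp1r10 and Znrd1as1 came back among the closest 3, which were then Fth1, Snrk and Dhx34 for AA926063, Cdip1, Map2k1 and Slc4a3 for Vwa7, Trip12, Arhgef18 and Trim27 for Ppp1r10, and Tubgcp5, Rassf5 and Ccar1 for Znrd1as1. Msh5 and Vwa7, which have Sapcd1 between them, had r = 0.73 over the 6 libraries and 0.06 with the group means removed.

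**Figure D5:**
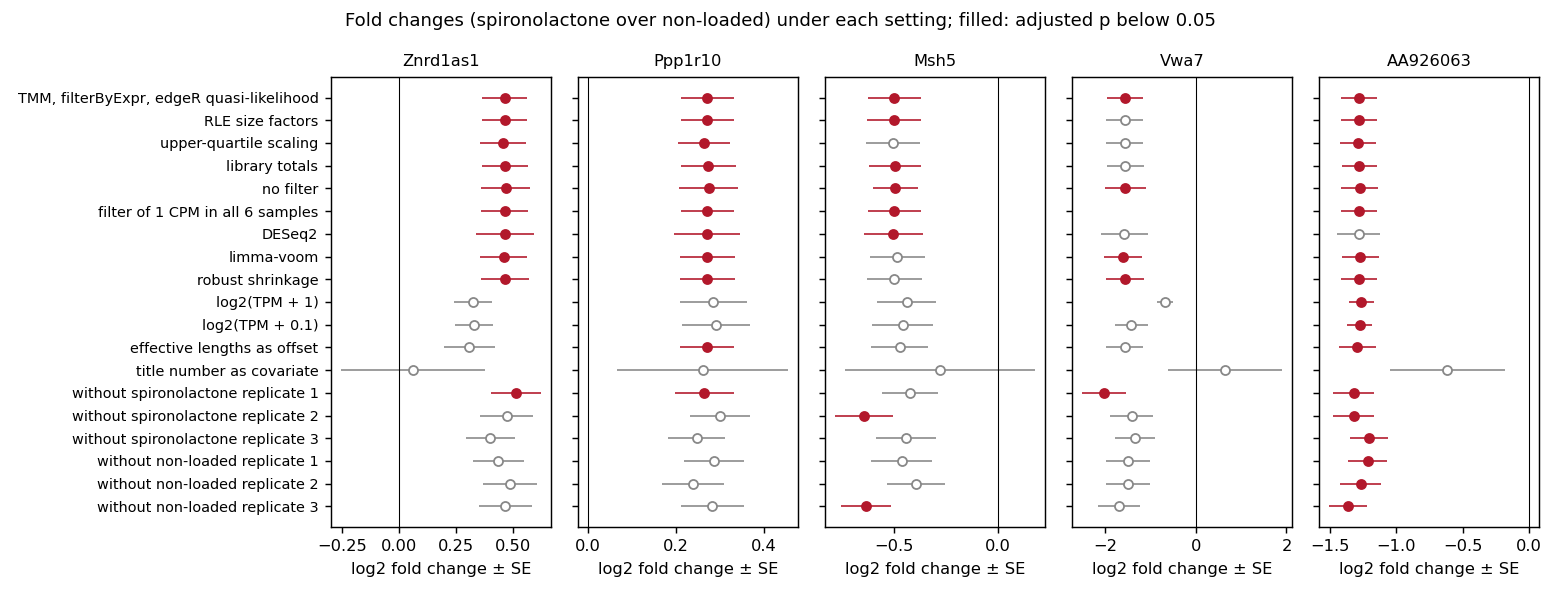
Log2 fold change (spironolactone over non-loaded) ± SE of the 5 genes under each setting of the analysis, filled where the adjusted p was below 0.05. AA926063 stays between −1.36 and −1.21 in every setting except the one with the title number as a covariate, and is open with DESeq2 because that tool gave it no adjusted p.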

How the data were processed

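RNA sequencing of 6 neuroretina samples was used. Per the labels' protocols, the kit for RNA isolation included DNase and that for libraries selected mRNA and kept strand. The submitters' processing notes list, with no roles, the rn6 genome and RSEM 1.2.28, STAR 2.5.3a, Trimmomatic and FastQC. The authors deposited, per the file headers, expected counts per gene from RSEM, TPM, FPKM (not used here) and weighted gene lengths. RSEM divides reads that match several genes by likelihood, so overlapping and duplicated genes are less certain.

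Expected counts were rounded. filterByExpr kept 13242 of 28358 genes. Spironolactone was compared with non-loaded by edgeR 4.0.16 (TMM, quasi-likelihood, two-sided, Benjamini-Hochberg over all tested genes, threshold 0.05) in R 4.3.3, and the test was tested on simulated data. The SE is the log2 fold change over the square root of F. Alternatives used DESeq2 1.42.0, limma 3.58.1, other scalings and filters, and each library left out. Correlations used log2(CPM + 0.5). Samples were grouped by the treatment label.

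The genes, lists and tests were chosen with earlier results of these data known. Named genes are the 5, called genes of the region and function lists, those nearest the threshold, direct neighbours, and the closest by correlation; the text gives a part of them. Tapbp, outside the direct neighbours, comes from the antigen processing list. Cdsn is not analysed here.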

Additional observations from a re-analysis of the deposited data

How the results depend on the processing

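Znrd1as1, Ppp1r10, Msh5 and AA926063 kept their direction in every alternative, all of which used the libraries they were chosen on. Their log2 fold changes with the title number as a covariate were 0.06 ± 0.32, 0.26 ± 0.19, −0.28 ± 0.46 and −0.61 ± 0.43 (SE, in that order). Those of Znrd1as1 and Msh5 were thus smaller than their SE. With the title number as a covariate, log2 fold changes changed sign for Vwa7 (0.64), Znrd1 (0.25), Mlh3 (−0.038), Vwa1 (0.0055) and Polr2k (0.062), and edgeR called 0 genes higher and 0 lower in all genes and in every list (562 of all genes at an unadjusted p below 0.05). The title numbers of the groups do not overlap, so number and group are hard to tell apart. AA926063 passed 6 of 6 fits with a library left out and, the title number aside, 10 of the 10 other alternatives that gave it an adjusted p. Ppp1r10 passed 9 of 11 of these, Znrd1as1 8 of 11, Msh5 5 of 11 and Vwa7 3 of 9. DESeq2 gave no adjusted p to AA926063, Vwa7, C4a, Sapcd1, Trim15 and Znrd1, and the filter of 1 CPM left Vwa7 out. Leaving out 1 library, Znrd1as1, Ppp1r10 and Vwa7 each passed 1 of 6 and Msh5 2 of 6. Over all genes, 439 higher and 163 lower were called with no filter, 82 and 18 on log2(TPM + 1), and 79 and 16 on log2(TPM + 0.1). With a library left out the counts were 81 to 421 higher (81 without spironolactone replicate 2, 421 without spironolactone replicate 1) and 30 to 200 lower (the same libraries). In the region list, 2 were higher and 3 lower. The count higher was 0 on both TPM scales, 1 with effective lengths as an offset, and 0 to 2 with a library left out. The count lower stayed at 3 only with no filter. It was 2 with RLE size factors, library totals, the filter of 1 CPM, limma-voom, robust shrinkage and effective lengths as an offset. It was 1 with upper-quartile scaling, DESeq2 and both TPM scales, and 1 to 2 with a library left out. Of its genes other than the 5, 1 was called higher with no filter and 1 lower with effective lengths. Of the function lists, 1 gene was higher (2 with DESeq2, 0 with limma-voom, robust shrinkage or TPM, 0 to 1 with a library left out) and 0 lower (0 to 1 with a library left out). The neighbours had 1 lower call in every alternative other than the title number. The causes were not tested. No paired analysis was possible because the labels give the groups no shared numbers. Depth limits genes of few counts such as Vwa7 and Trim15.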
